A study of Mus musculus with 6 samples.

Results

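The cytosolic ribosomal protein genes are the set described here, in mouse myotubes with and without prolonged exposure to insulin. Members were taken by name from the array's annotation: the symbol had to be Rpl, Rps or Rplp with a number and, optionally, a closing letter (a, l, x or y) and digit, or it had to be Rpsa. S6 kinases and pseudogenes were not members. The rule used no measured value, and it found 69 of the 20416 genes that had a probe set of their own: 39 large subunit genes, 23 small subunit genes and 7 paralogues. Symbols that occurred only on probe sets shared with another gene were not members, which left out Rpl15, Rpl17, Rpl24, Rpl26l1, Rpl9, Rps16 and Rps3a.

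The samples were 3 untreated control cultures and 3 insulin-treated cultures of C2C12, an immortal mouse myoblast line that fuses into multinucleate myotubes when serum is lowered. All 6 cultures grew in DMEM with 10% fetal bovine serum and antibiotics, were differentiated in DMEM with 2% horse serum and antibiotics, and were used between days 4 and 7 of differentiation. The treated cultures received 100 nM insulin for 48 h to make them insulin resistant, with fresh medium every 24 h, and the controls received no insulin. From each culture 25 ng of total RNA was amplified, labelled with biotin and hybridised to 1 array. The series has no genotype or knockdown, and C2C12 is a single line, so the comparison is of cultures and not of animals. The labels call the arrays of a group biological replicates but do not say whether the cultures were grown on separate days. The p-values therefore measure the spread between these arrays.

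The ribosome consists of a small subunit, which reads the mRNA, and a large subunit, which joins the amino acids. Ribosomal RNA forms the core of each subunit, and the ribosomal proteins, nearly all present as a single copy, coat and stabilise it. Vertebrate mRNAs for these proteins typically begin with a cytosine followed by a run of pyrimidines, the terminal oligopyrimidine (TOP) tract. Insulin, acting through the kinase complex mTORC1, is known for raising the translation of TOP mRNAs. The arrays measured RNA level only, not translation.

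The starts of 8 members are printed to show what this tract looks like and which members lack it. Each line holds 20 bases before and 20 bases from a transcript start annotated by RefSeq on mouse build GRCm38.p6, read 5′ to 3′ along the gene's strand, and capitals mark an unbroken pyrimidine run that begins with C at the start base. The first 5 carry the tract and the last 3 do not.
Rpl35a (chr16:33056462-33056501, plus strand, 1 of 3 annotated starts): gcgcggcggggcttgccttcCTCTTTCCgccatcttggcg
Rpl28 (chr7:4792945-4792984, plus strand): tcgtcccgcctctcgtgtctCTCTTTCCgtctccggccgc
Rpl38 (chr11:114668560-114668599, plus strand): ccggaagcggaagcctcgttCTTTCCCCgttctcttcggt
Rps10 (chr17:27635225-27635264, minus strand): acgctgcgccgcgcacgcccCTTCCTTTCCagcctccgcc
Rplp2 (chr7:141447631-141447670, plus strand): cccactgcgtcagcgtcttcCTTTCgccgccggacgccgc
Rps7 (chr12:28635934-28635973, minus strand): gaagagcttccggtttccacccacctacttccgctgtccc
Rpl7l1 (chr17:46782637-46782676, minus strand): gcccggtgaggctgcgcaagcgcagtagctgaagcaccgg
Rpl3l (chr17:24727806-24727845, plus strand, 1 of 2 annotated starts): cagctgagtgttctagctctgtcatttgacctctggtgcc

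RefSeq promoters were found for 56 of the 69 members, with 68 starts in all. A start base C with 4 further pyrimidines was present at 11 of the 68 starts (16.2%), against 2.51% of all 32851 promoters in the table. A run of at least 8 pyrimidines within 10 bases of the start was present at 27 (39.7%), against 13.7%. Over the 300 bases of each promoter and on both strands, CCGGAAGT, a core of the ETS family motif, was found in 12 (17.6%, against 3.89%), and AAGATGGC, a core of the YY1 motif, in 7 (10.3%, against 2.75%). Starts of the same gene were counted separately in these shares. The 7 with the YY1 letters include every annotated start of Rpl35a, whose windows overlap and hold the same site. Counted by gene, 5 tested members had these letters. The shares describe letters around annotated starts, and an annotated start can lie a few bases from the one a cell uses.

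On the arrays, most ribosomal protein genes differed little between insulin and control. Of 68 members tested, Rpl23a and Rpl35a rose, Rps4y2 fell and 65 did not pass the test. The share called was 4.41%, where 15.9% of all 14291 tested genes were called (9.56% higher and 6.35% lower). A gene's value was the median log2 value of its own probe sets, and a gene was called at a Benjamini-Hochberg adjusted p under 0.05 in a limma fit over all tested genes. The members' median difference, insulin minus control, was 0.042 on the log2 scale, with quartiles of -0.0047 and 0.12, beside -0.0028 over all genes. The median absolute difference was 0.064 in the members and 0.12 in all genes, and the median standard errors (SE) were 0.068 and 0.083. The plot of the difference of every member shows this narrow band and the genes outside it.

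**Figure D1:**
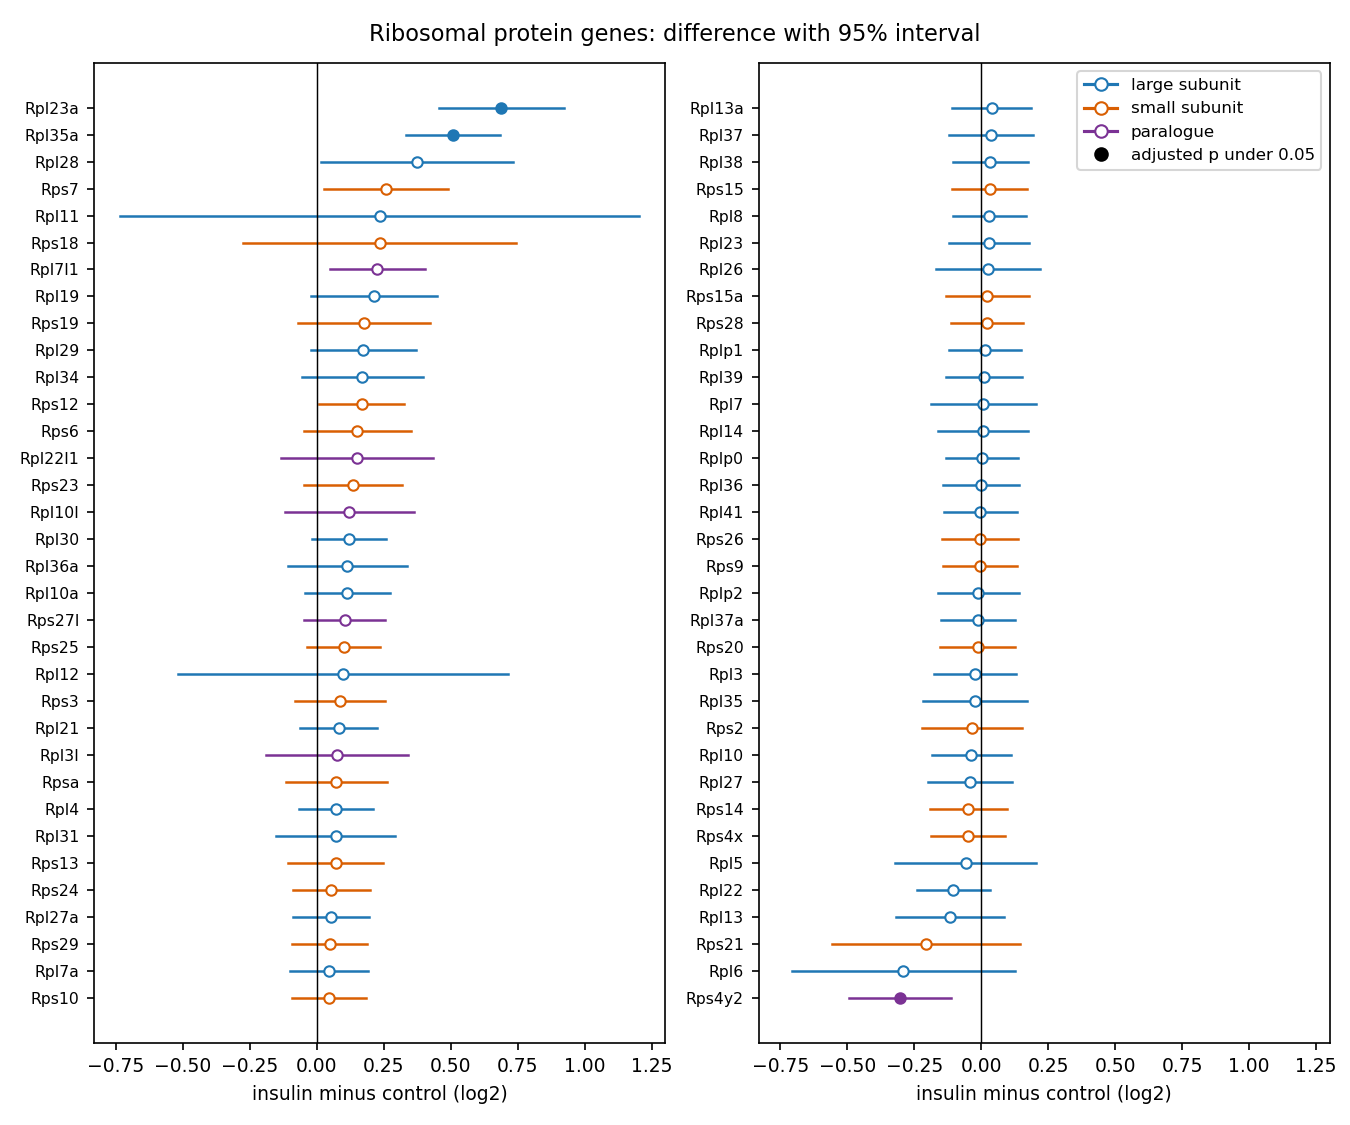
Difference insulin minus control (log2, horizontal) of each of the 68 tested ribosomal protein genes in order of size over 2 panels, with 95% intervals from the limma fit over 3 control and 3 insulin arrays; colours mark the subunit or paralogue and filled points an adjusted p under 0.05. Rpl23a (0.69) and Rpl35a (0.51) lie at the top and Rps4y2 (-0.30) at the bottom, and 48 of the 68 differences are above 0.

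The arrays of the groups did not overlap for 20 members, against 35.7% of all genes. Insulin was higher in 17 of them (20.0% of all genes) and lower in 3 (15.7% of all genes). The 17 were Rpl23a, Rpl35a, Rpl28, Rps7, Rpl7l1, Rps12, Rpl30, Rpl10a, Rps25, Rps3, Rpl21, Rpl4, Rpl27a, Rps10, Rps28, Rpl8 and Rplp1, and the 3 were Rps4y2, Rps4x and Rpl22. Most of these gaps were small: in Rps28, for example, the controls were at 13.70, 13.70 and 13.71 and the insulin arrays at 13.72, 13.72 and 13.73. An unadjusted p under 0.05 was found for 7 members (10.3%), against 29.9% of all genes. Differences above 0 were found for 48 members (70.6%), against 49.4% of all genes. Control 1 was the lowest of the 6 arrays for 42 members (61.8%), against 27.8% of all genes, and the members' median deviation from their own means was -0.069 on that array, -0.016 on control 2 and 0.026 on control 3. The insulin arrays stood at 0.023, 0.025 and 0.014, so control 3 lay above all of them. Without control 1 the members' median difference was 0.017. For 41 of 68 members (60.3%, against 28.5% of all genes) the 95% interval lay within 0.26 (1.2-fold) on either side of 0. The intervals of 61 members lay within 0.58 (1.5-fold), and those of Rpl23a, Rpl35a, Rpl28, Rpl11, Rps18, Rpl12 and Rpl6 did not. These intervals bound differences in array signal, not in RNA amount. Whether the strongest signals understate a difference in RNA was not tested.

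**Figure D2:**
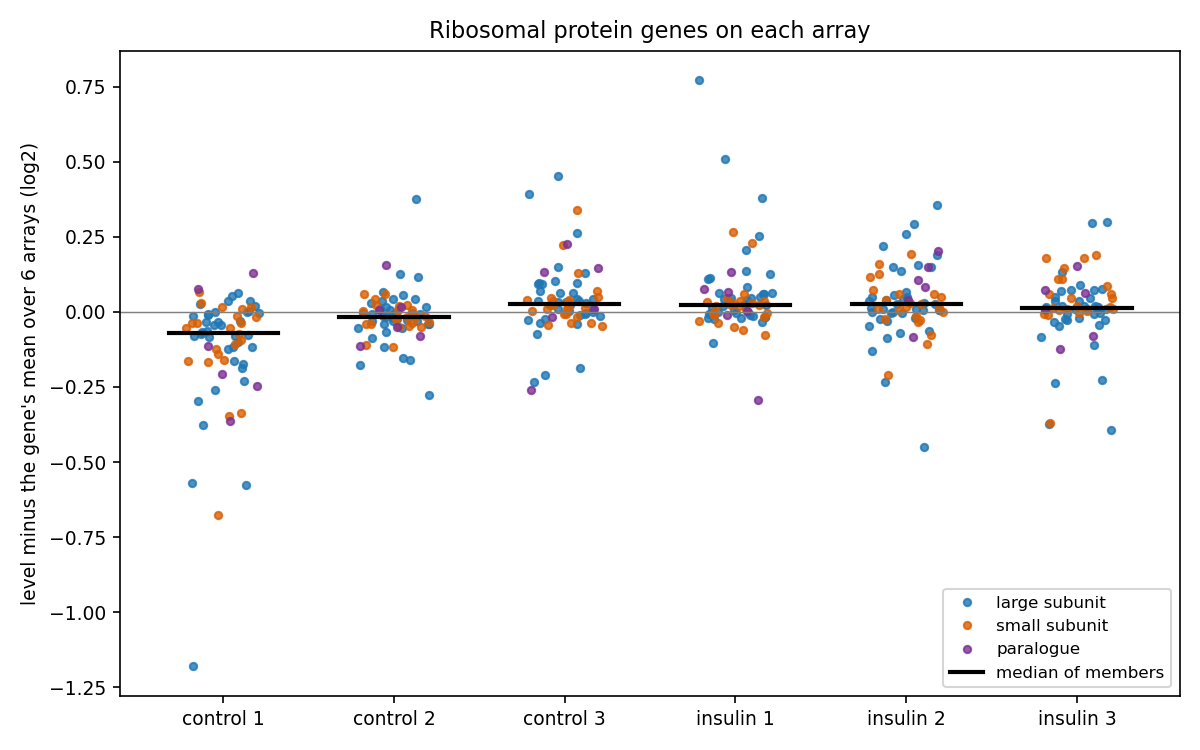
Each point is a ribosomal protein gene on 1 of the 6 arrays, as its log2 level minus the gene's own mean over the arrays, coloured by subunit or paralogue, with a line at the members' median. The median is lowest on control 1 (-0.069), and the point farthest down there is Rpl11. The median of control 2 (-0.016) lies below those of all insulin arrays, and that of control 3 (0.026) lies above them.

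Rpl23a encodes a large subunit protein at the mouth of the tunnel through which the nascent chain leaves, where the signal recognition particle docks. Its values were 7.81, 8.10 and 8.19 on the control arrays and 8.75, 8.73 and 8.67 on the insulin arrays. All insulin arrays were higher than all controls and lay close together. The means were 8.03 ± 0.20 and 8.72 ± 0.04 (SD, n = 3 each), a 1.61-fold difference of 0.69 ± 0.10 on the log2 scale (SE; limma adjusted p = 0.00433). The value came from 1 probe set. Another 5 probe sets list Rpl23a together with predicted genes, and these gave differences of 0.0080 to 0.15, none of them called. With these included, an alternative chosen after seeing the data, Rpl23a was at 0.088 and not called (limma adjusted p = 0.434).

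Rpl35a encodes a large subunit protein, and loss of a copy of its human counterpart causes Diamond-Blackfan anaemia. Its control values were 10.94, 11.16 and 11.08 and its insulin values 11.52, 11.58 and 11.61. Here too the groups were apart on all arrays. The means were 11.06 ± 0.11 and 11.57 ± 0.05 (SD, n = 3 each), a 1.42-fold rise of 0.51 ± 0.08 (SE; limma adjusted p = 0.00480). It also rested on 1 probe set. The 5 probe sets that list Rpl35a with Ino80 or predicted genes gave 0.024 to 0.23, none called, and with them the difference was 0.28 (limma adjusted p = 0.0227). Leaving out any array kept the calls of both genes in the fit over genes. The differences were then 0.58 to 0.77 for Rpl23a and 0.45 to 0.56 for Rpl35a. In the fit over all probe sets, the same Rpl35a probe set lost its call whichever array was left out. That of Rpl23a kept its call only without control 1 or control 3. Calls over all probe sets fell as well, from 8410 to between 597 and 6006.

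Rps4y2, whose present symbol is Rps4l, is a paralogue of the X-linked small subunit gene Rps4x. Its values were 8.32, 8.40 and 8.47 in controls and 7.96, 8.16 and 8.17 after insulin, with no overlap. It fell by 0.30 ± 0.08 (SE; limma adjusted p = 0.0417). Its probe sets gave -0.51 and -0.10, and neither was called alone. The call was lost without control 2 (adjusted p = 0.114), control 3 (0.0843), insulin 1 (0.124), insulin 2 (0.0819) or insulin 3 (0.0818) in limma. Rps4x itself was at 13.68, 13.69 and 13.72 in controls and 13.62, 13.64 and 13.68 after insulin, a difference of -0.05 with an interval of -0.19 to 0.09.

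Rplp0, Rplp1, Rplp2 and Rpl12 form the stalk that recruits the elongation factors. None of the 4 was called by limma or had an unadjusted p under 0.05, against 15.9% and 29.9% of all tested genes. Rplp0, the base of the stalk, was at 13.91, 13.92 and 13.93 in controls and 13.91, 13.93 and 13.93 after insulin. Its difference was 0.0043, with a 95% interval of -0.13 to 0.14. Rplp1 and Rplp2, the mobile arms, differed by 0.01 (interval -0.12 to 0.15) and -0.01 (-0.16 to 0.14). Rpl12, which sits beside Rplp0 at the stalk base, had a wide interval of -0.52 to 0.71 around 0.10, since insulin 1 was at 10.40 and insulin 2 and 3 were at 9.40 and 9.24. Without insulin 1 the difference of Rpl12 was -0.27 (limma adjusted p = 0.151). With the shared probe sets included, it was 0.44 and became a call (adjusted p = 0.0161 in limma).

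Rpl5 and Rpl11 form, with 5S ribosomal RNA, the particle that can bind MDM2 and stabilise p53. Rpl5 differed by -0.06 ± 0.12 (SE) on 1 probe set of low signal. Its means were 7.33 in controls and 7.27 after insulin, close to the 7.05 that a gene needed to be tested. Rpl11, also on 1 probe set, was at 9.92, 11.47 and 11.55 in controls and at 11.61, 11.32 and 10.72 after insulin. Control 1 stood more than 1.5 log2 units under the other controls, and the difference was 0.24 ± 0.42 with control 1 and -0.30 without it, called in neither case (limma adjusted p = 0.759 and 0.448).

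Rpl28, a large subunit gene whose start carries the tract shown above, had the highest difference among the members that did not pass. Its values were 8.10, 8.62 and 8.75 in controls and 8.82, 8.97 and 8.81 after insulin. The groups did not overlap, but the controls had an SD of 0.34 and the difference was 0.38 ± 0.16 (SE; limma adjusted p = 0.151). It was 0.18 without control 1 (adjusted p = 0.192 in limma), and with array weights it was 0.26 and called (0.0496). Rpl10, which completes the large subunit's tRNA-binding centre late in assembly, differed by -0.04 (interval -0.18 to 0.11). The lowest large subunit members were Rpl6 (-0.29), Rpl13 (-0.12) and Rpl22 (-0.10), with limma adjusted p-values of 0.333, 0.430 and 0.299. Rpl6 rested on 1 probe set of low signal, with means of 7.78 in controls and 7.49 after insulin. Of 8 tested proteins lining the nascent chain tunnel or its exit (Rpl4, Rpl19, Rpl22, Rpl23a, Rpl26, Rpl31, Rpl35 and Rpl39), Rpl23a alone was called, and the median was 0.048. In all, 2 of 39 large subunit genes rose and none fell, and their median was 0.031. Of all tested genes, 9.56% were called higher and 6.35% lower. Under alternative settings, Rpl30 became a call with an intensity trend, Rpl19 and Rpl36a with array weights and Rpl10a with averaged probe sets.

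None of the 23 small subunit genes passed the limma test, against 15.9% of all tested genes. Under alternative settings, Rps12 became a call with an intensity trend and with averaged probe sets, and Rps24 with averaged probe sets. At an unadjusted p under 0.05 there were 2, Rps7 and Rps12, beside 29.9% of all tested genes. The median was 0.048, and the differences ran from -0.21 to 0.26. Rps7, which can also bind MDM2, was at 11.39, 11.71 and 11.73 in controls and 11.79, 11.93 and 11.89 after insulin. The groups were apart, with control 1 lowest, and the difference was 0.26 ± 0.10 (SE; limma adjusted p = 0.129), or 0.15 without control 1. These values are midpoints of 2 unlike probe sets. The brighter had means of 13.51 in controls and 13.58 after insulin, a difference of 0.07. The dimmer had 9.71 and 10.16, a difference of 0.45 (limma adjusted p = 0.151). Rps18, a protein of the small subunit head, had a control 1 value of 11.13 beside 11.79 and 12.15, and insulin values of 12.04, 11.82 and 11.92. Its difference was 0.23 with control 1 and -0.04 without it.

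Rps6 is the protein that S6 kinases phosphorylate after insulin. Its RNA was at 12.37, 12.40 and 12.53 in controls and at 12.43, 12.64 and 12.69 after insulin. The groups overlapped, and the difference was 0.15 ± 0.09 (SE; limma adjusted p = 0.297). Rps19, the gene most often mutated in Diamond-Blackfan anaemia, differed by 0.18 (interval -0.07 to 0.42), or 0.05 without control 1. Over both subunits, 9 tested members are linked to that disease (Rps7, Rps10, Rps19, Rps24, Rps26, Rpl5, Rpl11, Rpl26 and Rpl35a). Their median was 0.054, and Rpl35a alone was called, where 15.9% of all tested genes were. Rpsa, also known as the laminin receptor, differed by 0.07 (-0.12 to 0.26), a value from a dim probe set with means of 9.51 and 9.59. A brighter Rpsa probe set had means of 13.68 in controls and 13.83 after insulin, without overlap. Its difference was 0.15 and was not called (limma adjusted p = 0.331). The lowest small subunit member was Rps21 at -0.21, with insulin values of 13.64, 13.17 and 13.01 beside controls of 13.40, 13.43 and 13.60. Insulin 1 lay above all controls and the other two below them.

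The paralogues can replace or accompany a standard ribosomal protein, and in them the differences were set beside those of their partners. Rpl7l1, a nuclear relative of Rpl7 with a part in subunit assembly, was at 11.63, 11.72 and 11.82 in controls and 11.91, 12.04 and 11.90 after insulin. The groups did not overlap, and all 8 of its probe sets lay above 0. The difference was 0.23 ± 0.08 (SE; limma adjusted p = 0.0859). It became a call with an intensity trend (adjusted p = 0.0384), with array weights (0.0126) or with the mean of its probe sets (0.0173) in limma. Rpl7 differed by 0.0083 (interval -0.19 to 0.20).

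Rpl3l is the striated-muscle form of Rpl3. The pair differed by 0.08 (interval -0.19 to 0.34) and -0.02 (-0.18 to 0.13), and no difference between partners was tested. Rpl3l was of low signal, with means of 7.23 in controls and 7.30 after insulin. Rpl22l1 was at 0.15 (-0.13 to 0.43), or 0.0072 without control 1, and Rpl22, its partner, at -0.10 (-0.24 to 0.03). Rps27l, a p53 target, was at 0.10 (-0.05 to 0.26). Rpl10l, a germline form of Rpl10, was at 0.12 (-0.12 to 0.36), also at low signal (means of 7.46 and 7.58). Rpl39l, a testis-enriched form, had values of 5.19 to 5.64 in controls and 5.41 to 5.72 after insulin, under the level of 7.05 that a gene needed to be tested. Rpl39 differed by 0.01 (-0.13 to 0.15).

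The size of the differences varied with the array signal. Members gave strong signals: 43 of 68 had a mean at or above 12.5, the 95th percentile of all genes, and 27 were above 13.4, the 99th. These are signals on the array and not RNA amounts. The following ranges of signal were chosen after seeing the data. In the 34 members with means of 13 or more, none was called by limma and 1 had an unadjusted p under 0.05, and the median absolute difference was 0.035. All 334 genes of that range had a median absolute difference of 0.061, and 5.69% were called. Rpl13a, Rps20 and Rpl37a, all in this range, differed by 0.04, -0.01 and -0.01. In the 18 members between 11 and 13, the median difference was 0.14, 16 lay above 0 and 1 was called, while all genes of that range had a median of 0.0095 and 19.0% were called.

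Between 9 and 11 none of 8 members was called by limma, against 20.9% of all genes. None of these 8 had an unadjusted p under 0.05, as 2004 of all 5407 genes of that range did. The values of Rpl29, Rpl36 and Rps15a there are midpoints of a brighter and a dimmer probe set. The 17 member probe sets with means of their own between 9 and 11 had a median difference of 0.073 and an upper quartile of 0.44. Of these 17, 14 lay above 0 (82.4%, against 50.4% of all probe sets of that range). Under 9, 2 of 8 members were called (Rpl23a and Rps4y2), against 10.0%. Whether the strongest signals approach the upper end of what the arrays can resolve was not tested.

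**Figure D3:**
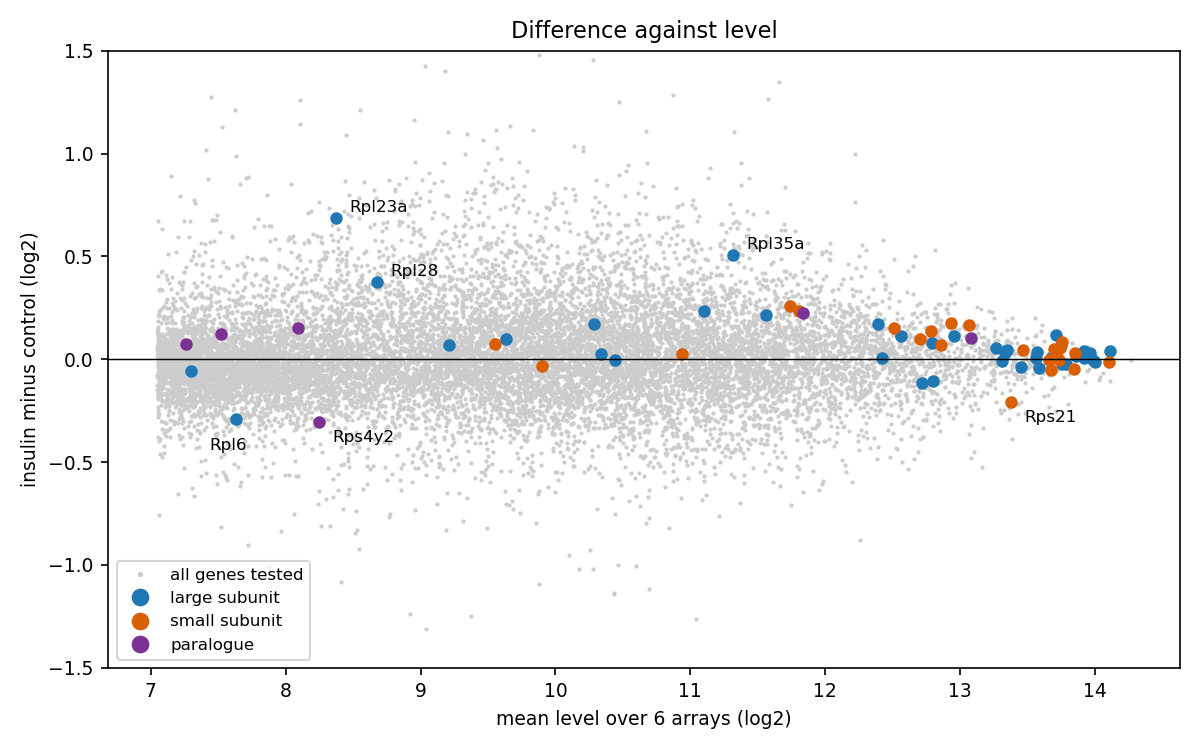
Difference insulin minus control (log2) against the mean log2 level over the 6 arrays, with all tested genes in grey and the ribosomal protein genes coloured by subunit or paralogue. The vertical axis ends at 1.5 on either side of 0 and leaves out 17 genes, none of them a ribosomal protein gene, and the members at levels of 13 or more lie close to 0.

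Of the 69 members, 53 had more than 1 probe set of their own. Of 218 tested probe sets that name a member alone, 4 were called, all higher (1.83%, against 5.66% of all 148468 probe sets, 3.95% higher and 1.71% lower). They belonged to Rpl23a, Rpl35a, Rpl22 and Rps24. A single Rpl22 probe set, at 8.70, 8.20 and 8.15 in controls and 8.97, 9.29 and 9.24 after insulin, rose by 0.82 (limma adjusted p = 0.0426). The other Rpl22 probe sets were at 0.00057, 0.03 and -0.21, so the gene's value gave the opposite sign. A Rps24 probe set rose from 11.49, 11.63 and 11.53 to 12.06, 12.01 and 12.19, a difference of 0.54 (limma adjusted p = 0.0234), beside 0.05 and -0.06 in its other probe sets. No member probe set was called by limma when control 2 or any insulin array was left out. Calls over all 148468 probe sets, 8410 with every array, fell as well. They numbered 1758 without control 2 and 827, 688 and 597 without insulin 1, 2 and 3. A probe set each of Rpl22 and Rpl23a was called without control 1 (4577 calls over all probe sets), and that of Rpl23a without control 3 (6006 over all).

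In Rpl12, the probe sets ran from -0.92 to 0.65, and the gene's median came from different probe sets on different arrays. The 3 probe sets whose insulin arrays lay above all controls were at 0.27, 0.57 and 0.65, with limma adjusted p-values of 0.221, 0.0517 and 0.162. In Rplp0, a probe set of lower signal was at 10.23, 10.42 and 10.46 in controls and 10.68, 10.79 and 10.86 after insulin, a difference of 0.41 (limma adjusted p = 0.0600). The other Rplp0 probe sets lay between -0.0081 and 0.05. In 13 probe sets of 6 genes the values repeated those of another probe set of the same gene, so these were not separate measurements.

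**Figure D4:**
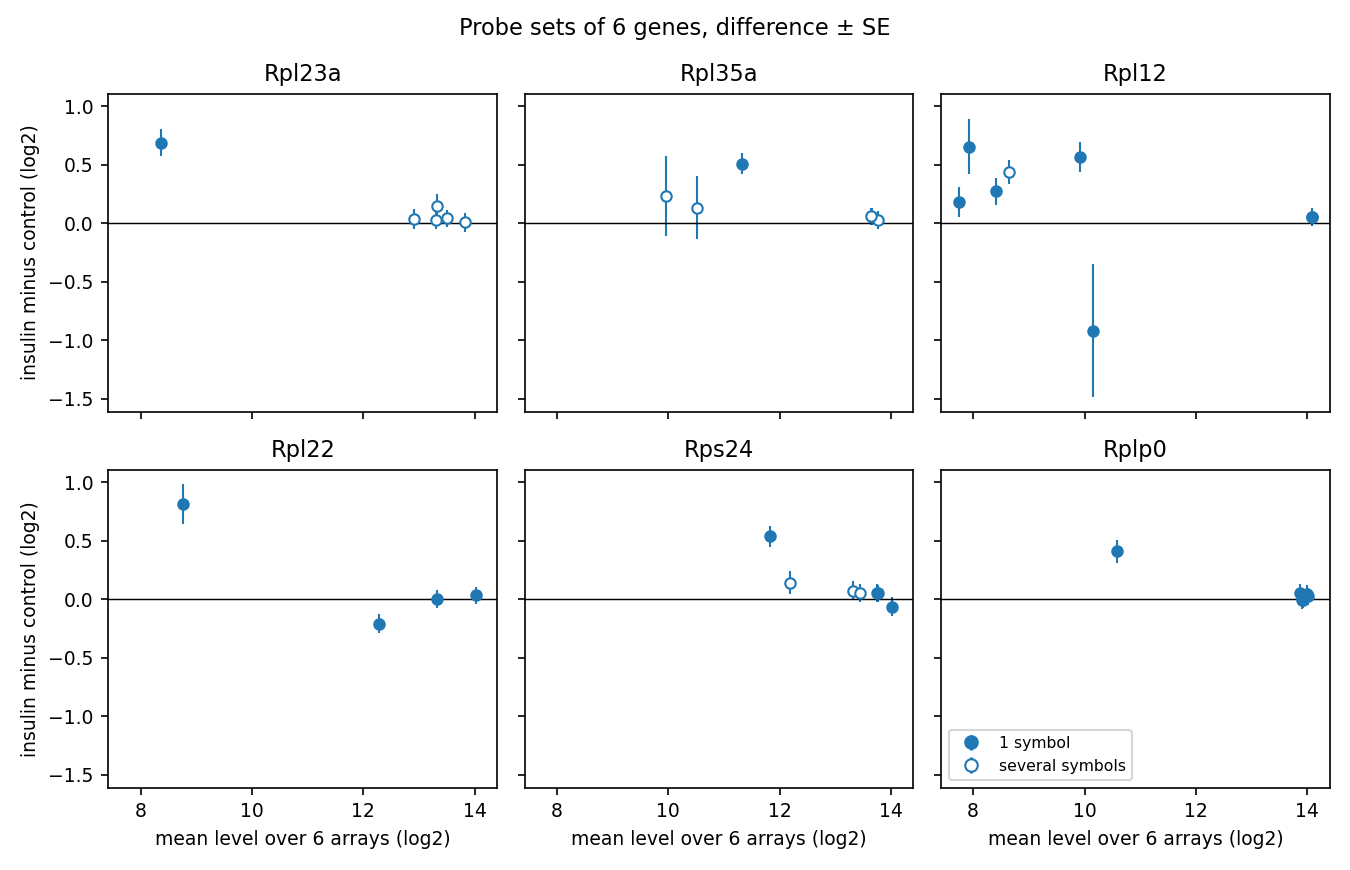
Difference insulin minus control (log2) of each probe set of 6 ribosomal protein genes against its mean log2 level over the 6 arrays, with bars of 1 SE on either side from the limma fit; filled points have 1 symbol and open points several. The probe sets of Rpl12 run from -0.92 to 0.65 and those of Rpl22 from -0.21 to 0.82, and the open points of Rpl23a lie between 0.0080 and 0.15.

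Probe sets that list a member together with another symbol numbered 218 after the filter, and 183 of them had a mean signal of 13 or more. None was called by limma, against 5.68% of all probe sets with shared ones added, and the median difference was 0.025. An unadjusted p under 0.05 was found for 2 (0.917%). Both of these also list a small nucleolar RNA, a class of guide RNA encoded in introns: Snora65 with Rpl12 (8.43 ± 0.06 to 8.87 ± 0.16, a difference of 0.44, limma adjusted p = 0.0592) and Snord32a with Rpl13a (0.27, adjusted p = 0.194). Only 4 shared probe sets list such an RNA. Those with Snord34 and Rpl13a and with Snord68 and Rpl13 were at 0.15 and 0.02. These were singled out after their values were seen. With shared probe sets included, the differences of Rpl28, Rps7 and Rps6 were 0.04, 0.05 and 0.02.

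The 11 tested members with a tract at an annotated start, among them Rpl28, Rpl38, Rps6 and Rplp2, had a median difference of 0.034, and 1 of them, Rpl35a, was called. The 44 other tested members with a promoter had a median of 0.054 and none called by limma, with 3 at an unadjusted p under 0.05. Among all tested genes, 15.9% were called and 29.9% had an unadjusted p under 0.05. Members with the ETS letters numbered 12 and had a median of 0.087, and the 43 without had 0.039. Neither division was tested.

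Genes linked to the ribosomal proteins were set beside them from lists written by role. Over all tested genes, 9.56% were called higher and 6.35% lower. Of ribosomal proteins under other names, Fau and Rpl36al were at 0.03 and 0.03, and neither was called. Among 18 other genes with TOP mRNAs, mostly translation factors, Tpt1 fell and 17 did not pass, with a median of 0.032. Tpt1, a growth-linked protein also called TCTP, went from 12.24, 12.37 and 12.29 to 12.06, 12.01 and 11.84, a fall with no overlap (-0.33 ± 0.08 SE; limma adjusted p = 0.0278). It was at -0.06 in its brightest probe set (adjusted p = 0.537) and not called without control 2 (0.0991), insulin 2 (0.0748) or insulin 3 (0.0953).

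Of 16 measured genes of the mTOR and S6 kinase pathway and TOP mRNA binding, Mtor itself fell and 15 did not pass, with a median of 0.032. Mtor was at 11.09, 10.99 and 10.86 in controls and 10.69, 10.53 and 10.73 after insulin. The groups were apart, and the difference was -0.33 ± 0.09 (SE; limma adjusted p = 0.0367). The call was lost without control 1 (adjusted p = 0.0789), control 2 (0.108), insulin 1 (0.0871), insulin 2 (0.128) or insulin 3 (0.0736) in limma. Rps6kb1, the main S6 kinase, was at -0.12 and Eif4e, the cap-binding factor, at 0.40, with limma adjusted p-values of 0.332 and 0.0620.

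The 14 genes listed as ribosomal protein chaperones and importers, with assembly factors such as Ltv1 among them, had a median of 0.15. Of these, 3 rose (21.4%), where 9.56% of all tested genes were called higher, and an excess in so short a list was not tested. Grwd1, the chaperone of Rpl3, went from 9.37, 9.63 and 9.77 to 10.05, 10.18 and 10.27, with no overlap (0.58 ± 0.11 SE; limma adjusted p = 0.0116). Tsr2, the chaperone of Rps26, rose by 0.25 (adjusted p = 0.0285 in limma) and Ltv1, which aids small subunit assembly, by 0.30 (0.0282). Grwd1 was not called without insulin 3 (limma adjusted p = 0.0543). Tsr2 lost its call without control 2, control 3 or any insulin array, with limma adjusted p-values of 0.0566 to 0.0964, and Ltv1 without control 1, control 2, insulin 1 or insulin 2 (0.0584 to 0.107). Of 7 p53 surveillance genes none was called by limma, with 2 at an unadjusted p under 0.05 (Mdm4 at 0.32 and Hexim1 at -0.18). An unadjusted p under 0.05 was found for 29.9% of all tested genes.

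**Figure D5:**
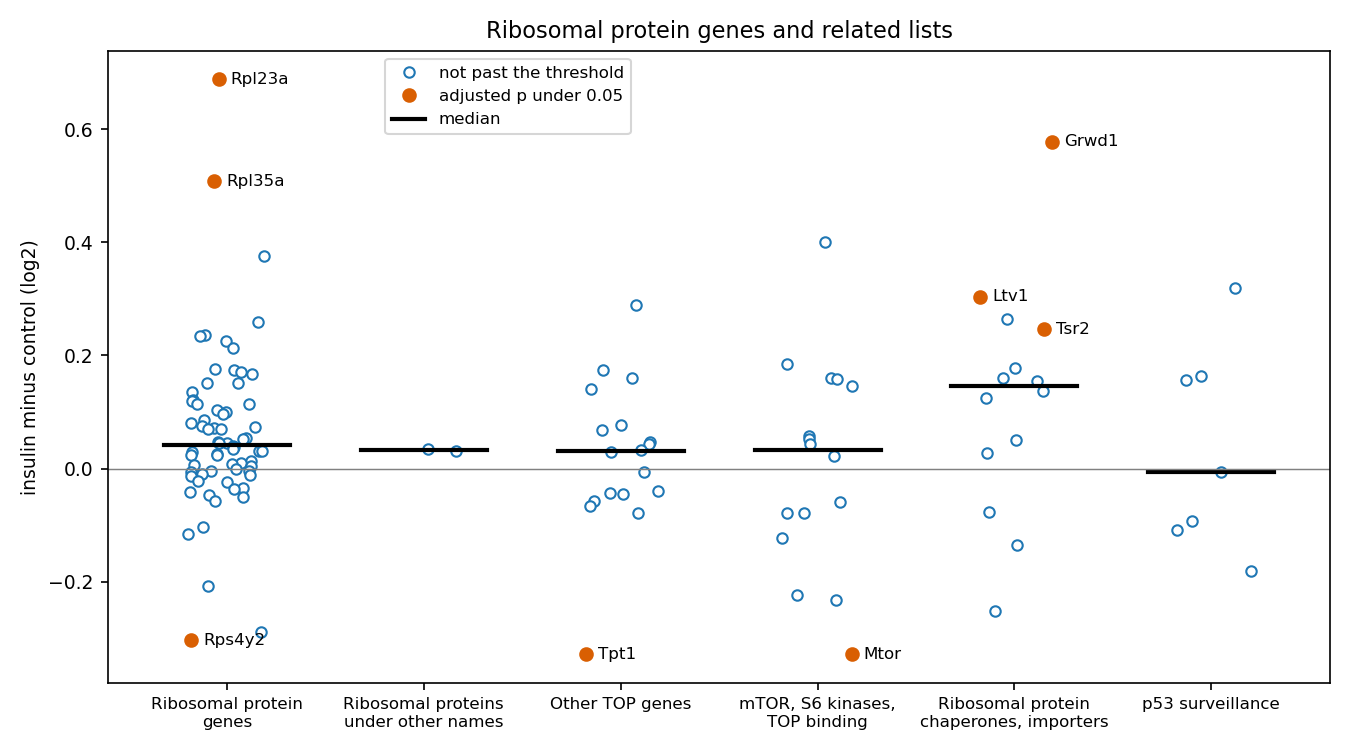
Difference insulin minus control (log2) of the ribosomal protein genes and of 5 lists of related genes, 1 point per gene, filled where the limma adjusted p was under 0.05, with a line at each median. Grwd1, Ltv1 and Tsr2 lie above 0 and Tpt1 and Mtor below, and the medians of the 5 lists lie between -0.0065 and 0.15.

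Markers of cell state moved with the same comparison. All 18 markers of the labelled cell type, myotubes, passed the level filter. Of them 6 fell and none rose, where 6.35% of all tested genes were called lower and 9.56% higher. The mean level of the 18 markers was 12.62 to 12.86 on the control arrays and 12.44 to 12.48 on the insulin arrays. All 7 measured markers of dividing cells rose, from mean levels of 11.01 to 11.04 to mean levels of 11.58 to 11.62. Of 6 tested myoblast markers, Cd34 and Myf5 rose and Heyl fell, and of 5 fibroblast markers Dcn fell. Of the defining markers of other cells, Adipoq, Fabp4 and Lep (adipocyte), Ibsp (osteoblast) and Ptprc, Emr1 and Hbb-b1 (blood) were under the level needed to be tested. Other markers of these lists passed that level and were not called by limma, none of them at an unadjusted p under 0.05: Plin1 and Cidec (adipocyte), Bglap1, Alpl and Sp7 (osteoblast) and Cd68 (blood). Their list means were 7.70 to 8.02 on the control arrays and 7.76 to 7.82 on the insulin arrays for adipocyte, 7.63 to 7.76 and 7.61 to 7.75 for osteoblast, and 7.85 to 7.90 and 7.81 to 7.91 for blood. The part of these shifts in any difference above was not tested. In bulk RNA, fewer cells of a type cannot be told apart from less RNA per cell, and RMA equalises the arrays, so each difference is relative to the other transcripts.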

How the data were processed

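Each probe set has a deposited log2 value for every array, computed by the authors with RMA (version not named) per the submitters' processing notes. Values ran from 3.15 to 14.6, from which base 2 was inferred. There were 241576 probe sets, with medians per array of 8.79 to 8.82. Detection calls and scan dates were not used here, and precision is limited by how many arrays there are. In GEO's platform annotation 212097 probe sets carry 1 symbol, 4475 carry several and 25004 carry no symbol. A gene was the median of its probe sets with 1 symbol, and genes with a mean under the 30th percentile (7.05) were left out. Probe sets were fitted likewise, over a level of 7.57.

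The group difference, insulin minus control, was estimated in limma 3.58.1 under R 4.3.3 (lmFit, then eBayes; two-sided; no covariates), with Benjamini-Hochberg adjustment over all tested features and a threshold of 0.05. On simulated data for this comparison over 14291 genes, 4.3% of differences of 0.25 were called, 51.1% of 0.5, 87.8% of 1 and 97.7% of 2 (log2), and 1.9% of calls were false. The members and lists were chosen with earlier results of these data known. Named genes were the called members, the 6 largest and 6 smallest differences, stalk, 5S, kinase-substrate and paralogue genes, members whose controls spread by over 1, and called genes of the lists; further examples were chosen after their values were seen. Present symbols, promoters and starts came from RefSeq GRCm38.p6. Same-numbered arrays of the groups had correlations of their deviations of 0.025, 0.195 and 0, so the numbers were not taken to pair the cultures. Alternatives were a replicate block, repeated quantile normalization, centred arrays, other filters, array weights, a robust prior with an intensity trend, other summaries of probe sets and leaving out each array.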

Additional observations from a re-analysis of the deposited data

How the results depend on the processing

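Only 3 arrays a group were available, and detection above background was not judged. In the simulated data 4.3% of differences of 0.25 were called. Far fewer genes differed there than were called in the real fit, so that share does not carry over to it. The members' median difference of 0.042 stayed above 0 under every alternative run (0.017 to 0.066). Members called higher numbered 2, but 5 with an intensity trend and robust prior, 6 with array weights, 6 when probe sets were averaged and 1 with the brightest probe set, where Rpl23a was under the filter; leaving out an array gave 2 to 3. With shared probe sets there were again 2, but these were Rpl12 and Rpl35a, as Rpl12 gained a call and Rpl23a lost its own. The 1 member called lower became 0 without a filter, with the filter raised to the 50th percentile, with the trend, the brightest, the brighter or the shared probe sets, and 0 to 1 without an array. All genes called numbered 2274, but 5007 with array weights, 3436 with averaged probe sets, and 1045 to 2449 without an array. Member probe sets called numbered 4, but 0 with no filter, 9 with the trend, 19 with array weights, and 0 to 2 without an array. Calls over all probe sets moved too. They numbered 8410, but 2738 with no filter, 13807 with the trend, 30573 with array weights, and 597 to 6006 without an array. Called genes of the related lists numbered 5, but 1 with no filter, 10 at the 50th percentile, 11 with the trend, 21 with array weights, 12 with averaged probe sets, 2 with the brightest and 8 with the brighter probe sets, and 1 to 6 without an array. With the replicate number as a block, members called stayed at 2 higher and 1 lower, member probe sets called fell to 0, and list genes called to 2. All genes called were then 1970 and all probe sets called 2364. Among single named genes, 44 values lost a call and 5 gained one, and no called value changed sign. Shared probe sets and the restriction to members with several probe sets were chosen after seeing the data. The cause of each change was not tested.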
